A study of Mus musculus with 10 samples.

Results

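In whole mouse ovaries, 10 genes used as markers of macrophage identity and of lipid-laden macrophages were examined. Adgre1, Csf1r, Fcgr1, Mrc1 and Cd163 encode surface receptors, and Cd68, Lyz2, Gpnmb, Trem2 and Spp1 encode lysosomal, lipid-sensing and secreted proteins. The genes were taken by symbol from a table of 55487 genes. All 10 were found, and all 10 were among the 18956 genes that passed a filter on low counts and were tested. Bulk RNA-seq had been done on 10 ovaries of mice with a C57BL/6J background, 4 from 8-week-old mice (Control), 3 from old mice (Aged) and 3 from old mice given CEFFE (Aged+CF). CEFFE, cell-free fat extract, is the liquid left when emulsified fat is freed of cells and debris. Treated mice received 200 μL at 3 μg of protein per μL into the tail vein every 2 days for 2 weeks, and per the study's methods Control and Aged mice received saline of the same volume. The old mice were 11 months old by the labels and 10 months by the methods. All mice, Control included, had been injected with 10 IU of PMSG, a gonadotropin that makes follicles grow, 48 h before the ovaries were taken. The methods call the samples biological replicates, and the labels do not say which animal each ovary came from, so the p-values below measure the spread between these ovaries.

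Macrophages depend on the receptor CSF1R, which binds the cytokines CSF1 and IL34, and they clear dying follicle and luteal cells in the ovary. When they take up more lipid and debris than they can break down they become foam cells, with swollen lysosomes and high expression of Gpnmb, Trem2, Lyz2 and Spp1. In ovaries of old mice such cells can fuse into multinucleated giant cells. TREM2 is a receptor for lipids that signals through the adaptor TYROBP, GPNMB is a glycoprotein of the lysosome and cell surface, and osteopontin, the product of Spp1, is a secreted protein that binds integrins and CD44.

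Promoter sequence is shown for the 4 genes called in Aged vs Control (Spp1, Gpnmb, Lyz2 and Trem2), for Cd68, whose window held 2 AP-1 sites, and for the Lyz2 paralog Lyz1, whose reads can be confused with those of Lyz2. The stretches are from RefSeq on GRCm38.p6, each written 5′ to 3′ on the strand of its gene, and 8 of the 10 genes had an entry that covered 250 bases before to 50 bases after the transcription start. Capitals mark GGAAGT, the core bound by ETS factors such as the myeloid factor PU.1 (written ACTTCC where it lies on the other strand), or TGAGTCA, an AP-1 site.
Lyz2, 150 to 51 bases before the start, chr10:117282323-117282422, minus strand: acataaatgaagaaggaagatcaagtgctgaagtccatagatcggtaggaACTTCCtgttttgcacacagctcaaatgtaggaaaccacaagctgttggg
Lyz1, 150 to 51 bases before the start, chr10:117292919-117293018, minus strand: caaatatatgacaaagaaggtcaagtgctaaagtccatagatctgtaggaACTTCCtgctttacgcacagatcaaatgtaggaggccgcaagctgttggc
Spp1, 150 to 51 bases before the start, chr5:104434961-104435060, plus strand: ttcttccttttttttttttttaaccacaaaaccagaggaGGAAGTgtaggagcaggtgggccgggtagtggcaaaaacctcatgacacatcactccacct
Cd68, 160 to 1 bases before the start, chr11:69666171-69666330, minus strand: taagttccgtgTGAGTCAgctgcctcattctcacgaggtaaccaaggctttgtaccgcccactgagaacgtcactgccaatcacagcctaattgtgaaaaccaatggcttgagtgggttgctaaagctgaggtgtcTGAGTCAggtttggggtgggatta
Gpnmb, 100 to 1 bases before the start, chr6:49036418-49036517, plus strand: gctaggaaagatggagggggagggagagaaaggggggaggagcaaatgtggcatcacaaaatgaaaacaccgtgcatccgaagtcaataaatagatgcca
Trem2, 100 to 1 bases before the start, chr17:48346301-48346400, plus strand: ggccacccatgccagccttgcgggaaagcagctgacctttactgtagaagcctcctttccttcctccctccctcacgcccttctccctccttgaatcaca
Searched on both strands, GGAAGT was found in the windows of 5 of the 8 genes (Mrc1, Fcgr1, Spp1, Lyz2 and Cd68), against 23.8% of 32851 windows of all genes. TGAGTCA was found in 2 of the 8, Cd68 and Gpnmb, against 5.2% of all windows. In Gpnmb its first base was base 9 of the transcript, outside the stretch shown. The E-box CACGTG was in 0 of the 8 and in 7.15% of all windows. No match overlapped another, and these letters are a description of the windows, not of binding. The Lyz2 and Lyz1 stretches were identical at 79 of 100 positions and held the same motif at the same distance, 100 bases before the start.

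On GRCm38 (GENCODE M21) the genes lie apart from each other, with Adgre1 at chr17:57358691-57483527, Trem2 at chr17:48346401-48354147, Csf1r on chromosome 18, Fcgr1 at chr3:96282909-96293969, Mrc1 at chr2:14229392-14332057, Cd163 at chr6:124304656-124330527, Gpnmb at chr6:49036546-49070929, Cd68 at chr11:69664213-69666153, Lyz2 at chr10:117277331-117282321 and Spp1 at chr5:104435118-104441050. All 10 are protein-coding. Lyz1 lies beside Lyz2, at chr10:117287797-117292868. Csf1r overlaps Hmgxb3 on the opposite strand over 873 bases, and Hmgxb3 had 772 to 1202 counts per ovary. The strand used in counting is not given in the sources used here, so reads in that overlap cannot be told apart. Spp1 overlaps Gm42793 on the same strand over 1252 bases, and Gm42793 had 1 to 6 counts.

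Per ovary, 15761789 to 21318254 reads were counted on genes. The tissue label was met by its markers: oocyte, granulosa, theca and stromal lists were detected in every ovary, with summed levels of 298 to 405 CPM (read counts relative to the library total, scaled by TMM) for 10 oocyte genes in Control, 11.5 to 83.9 CPM in Aged and 112 to 176 CPM in Aged+CF. One ovary, Aged replicate 34, stood apart. Its 8 B and plasma cell markers summed to 2670 CPM, against 241 and 23.4 CPM in the other Aged ovaries, 13.1 to 21.9 CPM in Control and 23.2 to 42.8 CPM in Aged+CF. Its 9 T and NK cell markers summed to 49.1 CPM, against 10.9 to 22.8 CPM in the other 9 ovaries, and its 10 oocyte markers to 11.5 CPM, the lowest sum. Its 9 epithelium and oviduct markers summed to 550 CPM, against 166 and 42.6 CPM in the other Aged ovaries and 129 to 261 CPM in Aged+CF. In Control that sum was 90.3 to 542 CPM, highest in Control replicate 33. The 7 stromal markers of Aged replicate 34 summed to 5550 CPM, the highest sum, against 3340 and 1860 CPM in the other Aged ovaries. Aged replicate 34 also had the highest level of the 10 ovaries for 8 of the 10 macrophage genes, where it was the highest in 16.9% of all genes tested. The fold changes of the macrophage genes, the ratios and the counts of the lists are therefore given with and without it. In bulk RNA, fewer macrophages and less RNA per macrophage cannot be told apart. Which cells of the ovary the RNA of the 10 genes came from was not tested.

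Markers of some other cells moved between the groups along with the macrophage genes, and those of others did not. In Aged vs Control, by edgeR at adjusted p, 5 of 5 erythroid genes, 6 of 8 B and plasma cell genes, 6 of 8 theca and steroidogenic genes, 5 of 7 endothelial genes and 4 of 8 T and NK cell genes tested were higher in Aged, and 9 of 10 oocyte genes were lower. Over all genes 5% were higher and 6.06% lower. With Aged replicate 34 left out the counts, in the same order, were 5, 5, 6, 5, 2 and 9, against 8.55% higher and 7.54% lower. With all ovaries, 0 of 8 dendritic cell, 8 granulosa, 7 stromal, 9 epithelium and oviduct and 5 adipocyte genes were called at adjusted p. Without Aged replicate 34, 1 granulosa and 1 stromal gene of these lists were called, both lower. The theca and steroidogenic list divided. Insl3 was lower, at 3.69 ± 0.443 CPM in Aged against 9.65 ± 3.42 CPM in Control, and Cyp17a1 had 222 ± 253 against 165 ± 123 CPM. Without Aged replicate 34, Cyp11a1, Star, Hsd3b1, Lhcgr, Akr1c18 and Ptgfr were called higher. In that fit Insl3 was 0.396-fold (edgeR adjusted p = 0.0852) and Cyp17a1 0.505-fold (adjusted p = 0.513), neither called. Summed theca and steroidogenic levels were 6380 to 11500 CPM in Control, 15500 to 35600 CPM in Aged and 13700 to 21400 CPM in Aged+CF, erythroid levels 71.8 to 112, 265 to 638 and 109 to 260 CPM, and endothelial levels 363 to 462, 560 to 708 and 475 to 501 CPM. In Aged+CF vs Aged none of these genes passed at adjusted p with all ovaries. At unadjusted p, 4 of 5 erythroid, 8 of 8 B and plasma cell and 5 of 8 T and NK cell genes were lower. So were 2 of 8 theca and steroidogenic and 2 of 7 endothelial genes, against 4.05% of all genes. Of 10 oocyte genes 3 were higher, against 3.91%. Without Aged replicate 34 these counts, in the same order, were 5, 4, 0, 3, 3 and 8, against 6.54% lower and 5.67% higher. At adjusted p in that fit 4 erythroid and 2 endothelial genes and 1 theca and steroidogenic gene, Lhcgr, were lower and 1 oocyte gene higher, against 2.16% and 0.713%. The part of these cells in the levels of the macrophage genes was not tested.

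Lyz2 was the most abundant of the genes per unit of length, with 159 FPKM in Control, and Cd68 followed with 16.3 FPKM. Gpnmb (9.44 FPKM) and Csf1r (8.13 FPKM) came next, and their Control values overlapped, as did those of Adgre1 (4.32 FPKM) with Mrc1 (4.26 FPKM) and of Trem2 (2.93 FPKM) with Fcgr1 (2.12 FPKM). Spp1 with 1.44 FPKM and Cd163 with 0.645 FPKM were the lowest. In Aged the order of the means was different, with Gpnmb (39.1 FPKM) above Cd68 (28 FPKM) and Spp1 (10.4 FPKM) close to Csf1r (10.7 FPKM). In Aged+CF the means were 261 FPKM for Lyz2, 21.5 FPKM for Gpnmb and 14.3 FPKM for Spp1, and Cd163 was again the lowest with 0.9 FPKM.

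Aged vs Control asked how the genes differed with age. The lipid and lysosomal genes Gpnmb, Lyz2 and Trem2 and the secreted Spp1 rose with age, by 1.99-fold to 7.9-fold. The lysosomal Cd68 was 1.84-fold higher in Aged and the 5 receptors Adgre1, Csf1r, Fcgr1, Mrc1 and Cd163 1.19-fold to 1.42-fold higher, and none of these 6 passed both thresholds. DEGs had to differ by 1.5-fold or more with a p under 0.05 in edgeR's quasi-likelihood test, after Benjamini-Hochberg adjustment over all genes tested. By that rule 4 of the 10 genes were DEGs, all higher in Aged, where 5% of all genes tested were called higher (11.1% in either direction). At unadjusted p with the same fold, 5 were called, all higher in Aged, against 8.79% of all genes called higher (18.2% in either direction). For 6 genes every Aged ovary was above every Control ovary, a pattern found in 11.8% of all genes (27.5% in either direction). The median log2 fold change was 0.69 for the 10 genes and 0 for all genes tested.

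**Figure D1:**
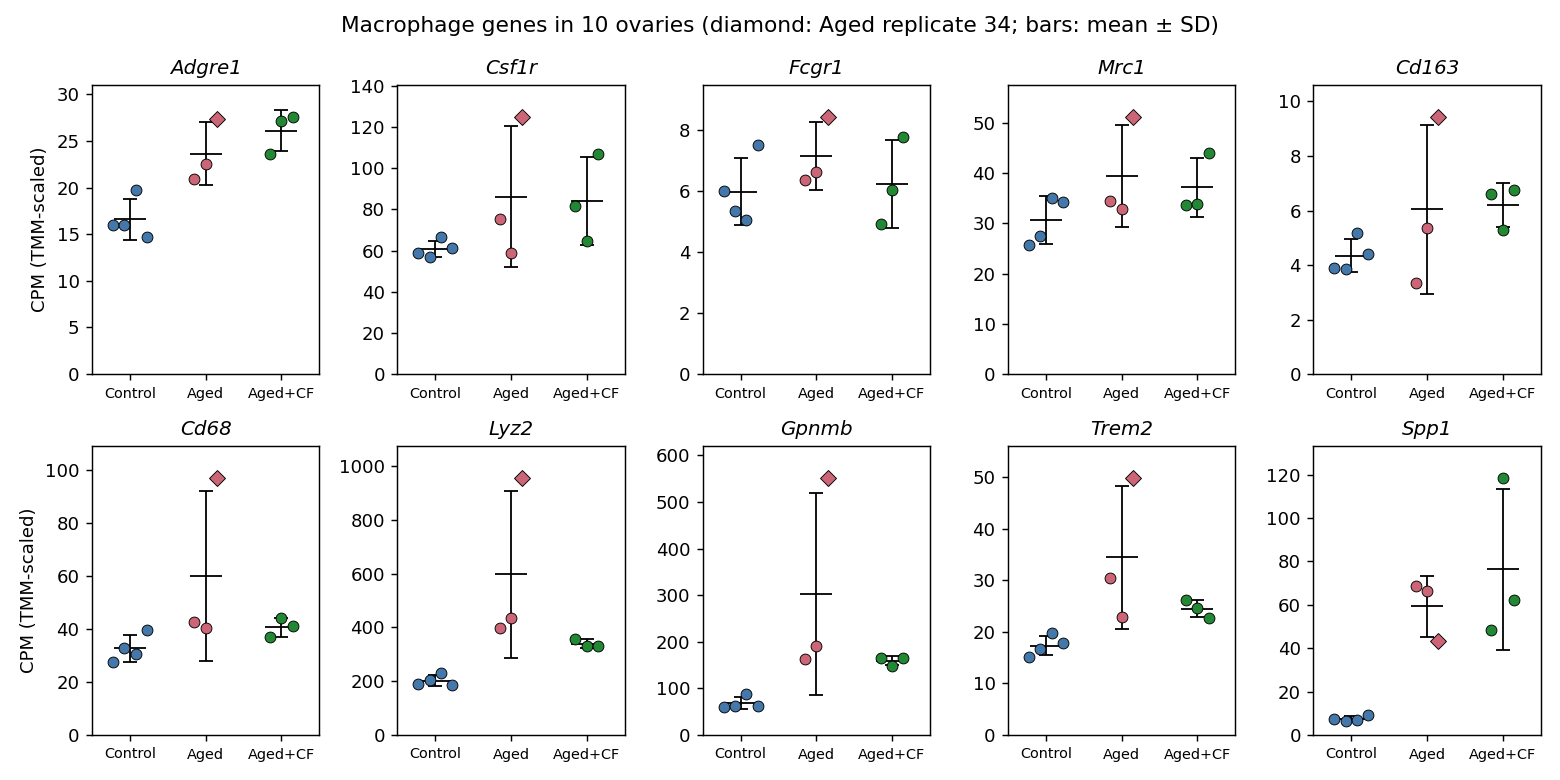
Level of each of the 10 macrophage genes in each ovary, as TMM-scaled CPM on a linear axis from 0, by group (4 Control, 3 Aged, 3 Aged+CF). Points are ovaries, bars are mean ± SD, and the diamond is Aged replicate 34, which was the highest of all ovaries for Gpnmb (552 CPM) and Lyz2 (958 CPM) but not for Spp1 (43.1 CPM).

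Spp1 had 7.41, 6.48, 6.74 and 9.38 CPM in the Control ovaries, 68.7, 66.3 and 43.1 CPM in the Aged ovaries and 48.3, 119 and 62.4 CPM in the Aged+CF ovaries. All old ovaries, treated or not, were far above all young ones, and the Aged and Aged+CF values were interleaved. Its level in Aged was 59.4 ± 14.1 CPM (SD, n = 3) against 7.51 ± 1.31 CPM in Control (SD, n = 4), a log2 fold change of 2.98 (SE 0.31, edgeR adjusted p = 0.00226). Aged replicate 34 was the lowest Aged ovary for this gene, at 0.639 times the mean of the other Aged ovaries. Without it the log2 fold change was 3.2 (adjusted p = 0.00135).

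Gpnmb had 60.8, 62.9, 88.1 and 60.9 CPM in Control, 162, 191 and 552 CPM in Aged, and 166, 148 and 165 CPM in Aged+CF. The lowest old ovary was above the highest young ovary, and among the old ovaries only Aged replicate 34 was clearly set off. The mean was 302 ± 217 CPM in Aged (SD, n = 3) and 68.2 ± 13.3 CPM in Control (SD, n = 4), with a log2 fold change of 2.15 (SE 0.37, edgeR adjusted p = 0.00836). Aged replicate 34 was 3.12 times the mean of the other Aged ovaries. Without it the rise was 2.66-fold in place of 4.43-fold and was still called (log2 fold change 1.41, SE 0.16, adjusted p = 0.00171).

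Lyz2, the lysozyme of macrophages and neutrophils, had 189, 204, 230 and 184 CPM in Control, 398, 437 and 958 CPM in Aged, and 359, 332 and 330 CPM in Aged+CF. The groups were ordered without overlap, with Control lowest, Aged+CF between and Aged highest. In Aged vs Control the log2 fold change was 1.57 (SE 0.26, edgeR adjusted p = 0.00772), and 1.09 without Aged replicate 34 (SE 0.11, adjusted p = 0.00144). Neutrophil markers stayed low, with a sum over 10 genes of 1.5 to 16.7 CPM in Control, 3.1 to 25 CPM in Aged and 3.85 to 4.87 CPM in Aged+CF, and Elane at 0 in all groups. The highest sums lay almost wholly in Ltf, with up to 16 CPM in Control and 23.9 CPM in Aged. Next came S100a8, at most 0.496 CPM, and only 1 of the 10 genes had counts enough to be tested.

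Part of the Lyz2 signal is uncertain because of its paralog. Of 1267 stretches of 50 bases in the Lyz2 transcript, 195 (15.4%) also occur in Lyz1. Lyz1, a lysozyme known from intestinal Paneth cells, had 2, 5, 8 and 2 counts in Control, 12, 6 and 89 counts in Aged and 11, 15 and 15 counts in Aged+CF. Its log2 fold change in Aged vs Control was 3.07 (SE 0.82, edgeR adjusted p = 0.0335), with most of the Aged counts in Aged replicate 34, and 1.29 without that ovary (adjusted p = 0.126). Its counts were low beside those of Lyz2 in every ovary.

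Trem2 had 15.1, 16.7, 19.7 and 17.8 CPM in Control, 30.4, 22.9 and 49.9 CPM in Aged, and 26.1, 24.5 and 22.7 CPM in Aged+CF. Old ovaries lay above young ovaries, and the Aged+CF values lay within or just below the range of Aged. The log2 fold change in Aged vs Control was 0.99 (SE 0.22, edgeR adjusted p = 0.0192), and 0.66 without Aged replicate 34 (adjusted p = 0.0151). Tyrobp, which encodes the signalling adaptor of TREM2, had 15.5, 20.4, 16.5 and 17.8 CPM in Control, 25.3, 32.7 and 56.2 CPM in Aged, and 22.9, 23.6 and 27.6 CPM in Aged+CF. It rose 2.17-fold with age (SE 0.24 on the log2 scale, edgeR adjusted p = 0.0151), and 1.7-fold without Aged replicate 34, its highest ovary (adjusted p = 0.00867).

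Cd68, a lysosomal membrane glycoprotein used to mark phagocytes, had 27.4, 32.9, 30.6 and 39.5 CPM in Control, 42.6, 40.4 and 96.9 CPM in Aged, and 36.9, 44 and 41.1 CPM in Aged+CF. The Aged and Control values did not overlap, but the lowest Aged ovary was close to the highest Control ovary. The difference was 1.84-fold (edgeR adjusted p = 0.0589), called at unadjusted p only. It was 1.31-fold without Aged replicate 34 (adjusted p = 0.0838), under the fold threshold.

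Among the receptors, Adgre1, the gene of the F4/80 antigen, had 16, 16, 19.7 and 14.7 CPM in Control, 20.9, 22.5 and 27.4 CPM in Aged, and 23.6, 27.2 and 27.6 CPM in Aged+CF. Every old ovary was above every young one, with Aged and Aged+CF interleaved. Its 1.42-fold difference in Aged vs Control had an adjusted p of 0.0375 by edgeR but was below the fold threshold, and without Aged replicate 34 the log2 fold change was 0.42 (adjusted p = 0.0616).

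Csf1r had 58.6, 57, 66.3 and 61.1 CPM in Control, 75.1, 58.7 and 125 CPM in Aged, and 81.5, 64.4 and 107 CPM in Aged+CF. Old and young ovaries overlapped, and the spread was larger in the old groups (SD 34.4 CPM in Aged and 21.4 CPM in Aged+CF, each n = 3) than in Control (SD 4.07 CPM, n = 4). The log2 fold change in Aged vs Control was 0.50 (SE 0.24, edgeR adjusted p = 0.183), and 0.18 without Aged replicate 34. Its ligands did not pass the test either. The log2 fold change was 0.26 for Csf1 (edgeR adjusted p = 0.475) and 0.11 for Il34 (adjusted p = 0.848), and -0.10 and 0.35 without Aged replicate 34.

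Mrc1, the mannose receptor of tissue macrophages, ranged from 25.7 to 35.1 CPM in Control, from 32.8 to 51.2 CPM in Aged and from 33.7 to 44 CPM in Aged+CF. Cd163, a scavenger receptor for haemoglobin bound to haptoglobin, ranged from 3.87 to 5.17 CPM, from 3.34 to 9.43 CPM and from 5.28 to 6.75 CPM in the same groups. Fcgr1, the high-affinity receptor for IgG, ranged from 5.07 to 7.53 CPM, from 6.38 to 8.44 CPM and from 4.93 to 7.78 CPM. In all 3 genes Aged and Control overlapped. Their log2 fold changes in Aged vs Control were 0.37 for Mrc1 (edgeR adjusted p = 0.212), 0.48 for Cd163 (adjusted p = 0.324) and 0.26 for Fcgr1 (adjusted p = 0.459). Leaving out Aged replicate 34 gave 0.17, 0.03 and 0.16.

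**Figure D2:**
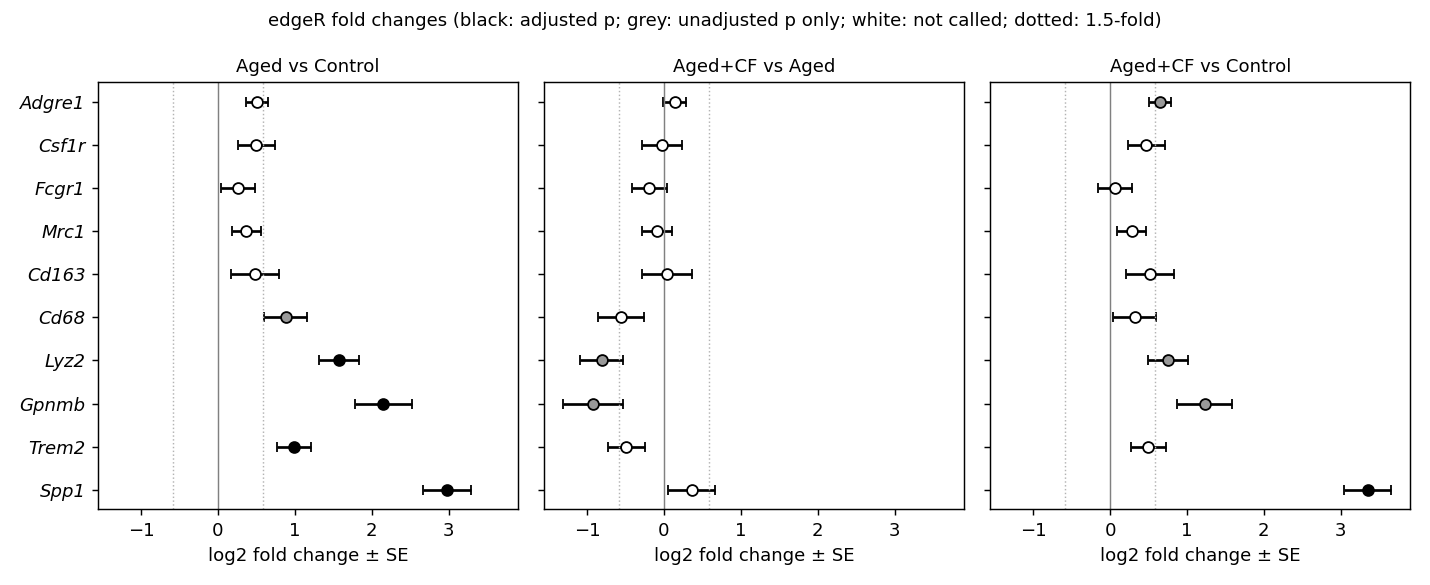
Log2 fold change ± SE of each gene in the 3 comparisons, from the edgeR fit on 10 ovaries. Black points passed 1.5-fold (dotted lines) at adjusted p, grey points at unadjusted p only, and white points neither, so that Lyz2, Gpnmb, Trem2 and Spp1 are black in Aged vs Control, no gene is black in Aged+CF vs Aged, and only Spp1 is black in Aged+CF vs Control.

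Aged+CF vs Aged asked how CEFFE treatment of old mice was reflected in the same genes. None of the 10 was a DEG at adjusted p in edgeR, where 0.00528% of all genes (1 gene) were called. DESeq2 and limma also called 0 of the 10 at adjusted p. At an unadjusted p under 0.05, Lyz2 and Gpnmb passed with a fold change beyond 1.5, both lower in Aged+CF, against 4.05% of all genes called lower (7.96% in either direction). The 10 genes divided into 3 higher and 7 lower in Aged+CF, with a median log2 fold change of -0.14 against -0.02 for all genes. For 1 gene, Lyz2, all Aged+CF ovaries were below all Aged ovaries, as in 8.39% of all genes (18.6% in either direction). This comparison and Aged vs Control share the 3 Aged ovaries, so a high value in an Aged ovary enters both, with opposite sign.

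Lyz2 was at 340 ± 16 CPM in Aged+CF and 598 ± 312 CPM in Aged (SD, n = 3 each), 0.569 times the Aged level (log2 fold change -0.81, nominal 95% interval by a normal approximation -1.37 to -0.25, edgeR adjusted p = 0.222). Gpnmb was at 160 ± 10.2 CPM against 302 ± 217 CPM (log2 fold change -0.92, nominal 95% interval -1.69 to -0.15, edgeR adjusted p = 0.289). Aged replicate 34 was the highest Aged ovary for both. Without it the log2 differences were -0.31 for Lyz2 (edgeR adjusted p = 0.156) and -0.16 for Gpnmb (adjusted p = 0.593), and none of the 10 genes passed the 1.5-fold threshold at unadjusted p, where 12.2% of all genes did so in either direction.

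Trem2 and Cd68 also differed less from Aged when that ovary was left out. Trem2 had a log2 difference of -0.49 (edgeR adjusted p = 0.341) with all ovaries and -0.14 without Aged replicate 34. Cd68 had -0.56 (edgeR adjusted p = 0.376) with all ovaries and -0.05 without it. Tyrobp had -0.63 with all ovaries (edgeR adjusted p = 0.269) and -0.25 without Aged replicate 34 (adjusted p = 0.374). Its Aged and Aged+CF values overlapped.

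The receptors and Spp1 had small differences in Aged+CF vs Aged, with intervals that include 0. The log2 difference was 0.14 for Adgre1 (nominal 95% interval -0.15 to 0.44), -0.03 for Csf1r (-0.54 to 0.47), -0.19 for Fcgr1 (-0.65 to 0.26), -0.09 for Mrc1 (-0.48 to 0.31) and 0.04 for Cd163 (-0.61 to 0.68). Leaving out Aged replicate 34 gave 0.32 for Csf1r, 0.13 for Mrc1 and 0.50 for Cd163, none called. Spp1 was 76.4 ± 37.2 CPM in Aged+CF (SD, n = 3) and had a log2 difference of 0.36 (nominal 95% interval -0.24 to 0.97, edgeR adjusted p = 0.579), with Aged+CF replicate 32 the highest of all ovaries.

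**Figure D3:**
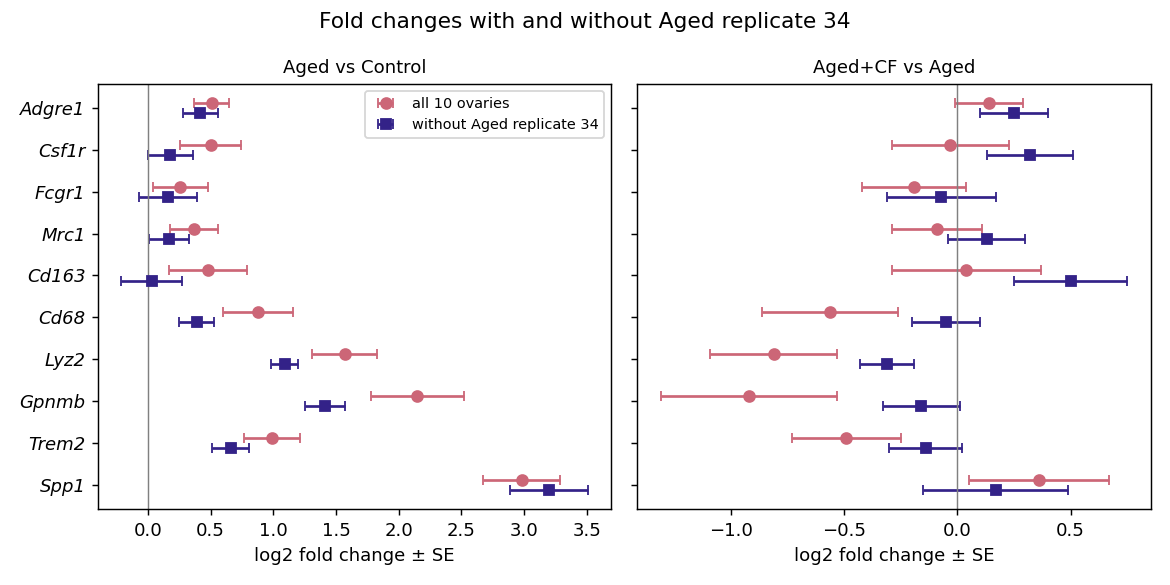
Log2 fold change ± SE of each gene with all 10 ovaries (circles) and without Aged replicate 34 (squares), with Aged vs Control on the left and Aged+CF vs Aged on the right. On the left, Gpnmb moved from 2.15 to 1.41 and Spp1 from 2.98 to 3.2, and on the right, Gpnmb moved from -0.92 to -0.16.

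Aged+CF vs Control set treated old ovaries beside young ones. Spp1 was higher in Aged+CF by 10.2-fold (log2 fold change 3.35, SE 0.31, edgeR adjusted p = 0.00492) and was the only one of the 10 genes called at adjusted p, where 0.137% of all genes were called higher and 0.0422% lower (0.179% in all). All 10 genes had higher fitted levels in Aged+CF than in Control, with a median log2 fold change of 0.51 against -0.03 for all genes. At unadjusted p, 4 genes were called, Adgre1, Lyz2, Gpnmb and Spp1, against 3.33% of all genes called higher and 4.36% lower (7.69% in all). For 6 genes the groups did not overlap, against 9.69% of all genes higher without overlap (21.9% in either direction).

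Gpnmb was 2.34-fold higher in Aged+CF than in Control (edgeR adjusted p = 0.188), Lyz2 1.69-fold (adjusted p = 0.246) and Adgre1 1.57-fold (adjusted p = 0.106). Trem2 was 1.41-fold higher without overlap between the groups (edgeR adjusted p = 0.355). Aged replicate 34 is in neither group, but it enters the shared estimate of the spread. When it was left out, 4 of the 10 genes were DEGs at adjusted p, against 1.8% of all genes in either direction: Adgre1 (log2 fold change 0.68, edgeR adjusted p = 0.0336), Lyz2 (0.78, adjusted p = 0.0113), Gpnmb (1.25, adjusted p = 0.00768) and Spp1 (3.37, adjusted p = 0.00213).

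Whether the genes differed by unequal amounts was examined as the ratio of each to Adgre1 within an ovary, which does not depend on the scaling of the library. In the Control ovaries the log2 ratio of Lyz2 to Adgre1 was 3.56, 3.67, 3.54 and 3.65, in the Aged ovaries 4.25, 4.28 and 5.13, and in the Aged+CF ovaries 3.92, 3.61 and 3.58. The Aged ovaries were above all others, and the Aged+CF ovaries overlapped Control. For Gpnmb the log2 ratio was 1.93 to 2.16 in Control, 2.95 to 4.33 in Aged and 2.44 to 2.81 in Aged+CF, with no overlap among the groups. For Spp1 it was -1.54 to -0.64 in Control, 0.65 to 1.71 in Aged and 1.03 to 2.13 in Aged+CF.

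In Aged vs Control the log2 ratio was higher by 0.94 for Lyz2, 1.43 for Gpnmb and 2.46 for Spp1, each with p = 0.0286 by a two-sided exact permutation test, the smallest p that 4 against 3 allows. The differences were 0.41 for Trem2 (exact permutation p = 0.171) and 0.26 for Cd68 (exact permutation p = 0.457). With Csf1r in place of Adgre1 the difference for Trem2 was 0.49, with an exact permutation p of 0.0286. The other receptors had log2 ratios to Adgre1 that differed by -0.25 to -0.07. With Aged replicate 34 left out the differences were 0.66 for Lyz2, 0.99 for Gpnmb and 2.78 for Spp1, each with an exact permutation p of 0.0667, the smallest that 4 against 2 allows, 0.22 for Trem2 and -0.04 for Cd68. Lyz2, Gpnmb, Spp1 and Trem2 kept the direction of their difference, and Cd68 did not.

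Between Aged+CF and Aged, the log2 ratio was lower by 0.85 for both Lyz2 and Gpnmb, by 0.59 for Cd68 and by 0.36 for Fcgr1, each without overlap and with an exact permutation p of 0.1, the smallest that 3 against 3 allows, so that this design cannot reach 0.05. All 4 differences kept their sign without Aged replicate 34, at -0.56 for Lyz2, -0.41 for Gpnmb, -0.30 for Cd68 and -0.35 for Fcgr1. With Csf1r as the reference and all ovaries they were -0.70 for Lyz2 (exact permutation p = 0.1), -0.70 for Gpnmb (p = 0.2), -0.45 for Cd68 (p = 0.2) and -0.22 for Fcgr1 (p = 0.5). In Aged+CF vs Control the Mrc1 ratio was 0.32 to 0.67 in Aged+CF and 0.69 to 1.22 in Control, a difference of -0.38 without overlap (exact permutation p = 0.0571). Over the 27 ratio tests to Adgre1 the lowest Benjamini-Hochberg adjusted value was 0.154, and 0.129 over those to Csf1r, so none passed after adjustment.

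**Figure D4:**
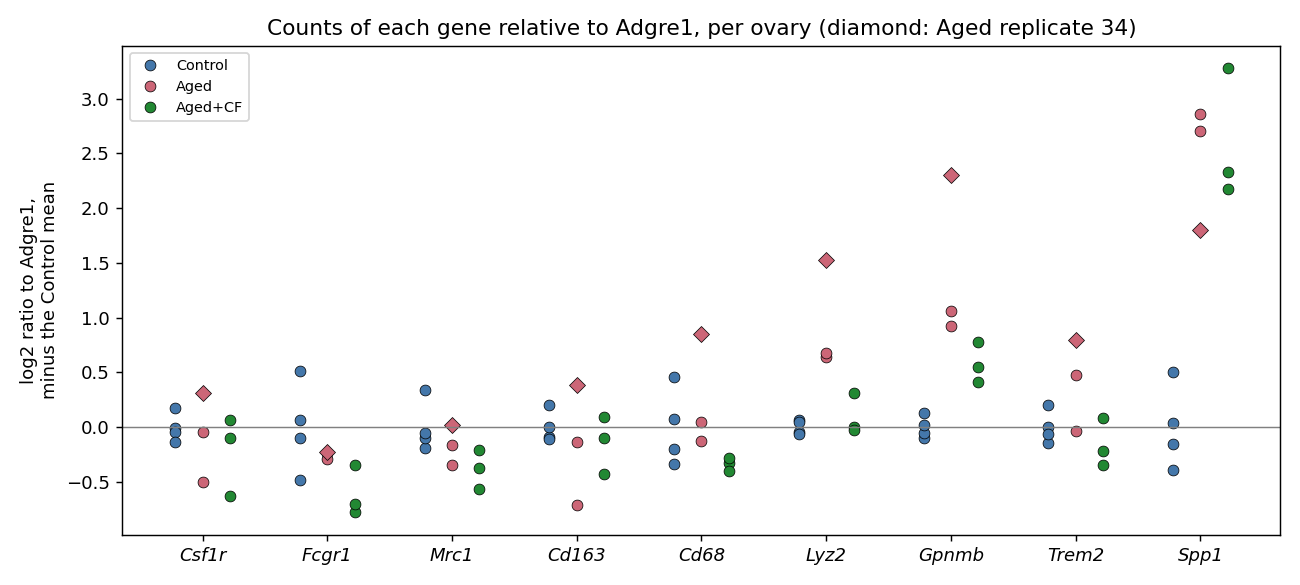
Log2 ratio of the counts of each gene to those of Adgre1 in each ovary, minus the mean of the Control ovaries (line at 0), for Control, Aged and Aged+CF, with Aged replicate 34 as a diamond. The Aged ovaries lie above Control for Lyz2, Gpnmb and Spp1. For Csf1r and Cd163 the old ovaries lie on both sides of the line, for Mrc1 the 3 Aged+CF ovaries lie below all Control ovaries, and for Fcgr1 all old ovaries lie below the line.

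Across the 10 ovaries, log2 CPM of Lyz2 and Gpnmb had a Pearson r of 0.99 (0.98 without Aged replicate 34), Lyz2 and Trem2 of 0.96 (0.89), and Gpnmb and Trem2 of 0.95 (0.89). The receptors were less alike, with r of 0.90 for Csf1r with Mrc1 (0.80 without Aged replicate 34) and 0.27 for Adgre1 with Fcgr1 (0.07). Spp1 had an r of 0.72 with Gpnmb, which was 0.92 without Aged replicate 34. Of 16734 genes searched, those most like Gpnmb over the 10 ovaries were Ctss (r = 0.991), Itgb2 (0.987) and Pla2g7 (0.986), those most like Spp1 were Lacc1 (0.976), Abcb1b (0.975) and Maoa (0.971), and those most like Adgre1 were Eps8 (0.966), Abcc4 (0.946) and Myof (0.944). These are descriptions of 10 points that share the group differences, and the libraries, of the comparisons above.

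Other genes of macrophage biology were taken from 7 lists with 119 genes, of which 107 were tested. With age 34 of them rose and 4 fell at adjusted p, against 5% and 6.06% of all genes, with a median log2 fold change of 0.55 (0 for all genes). When Aged replicate 34 was left out, 109 were tested, and 30 were called higher and 8 lower, against 8.55% and 7.54% of all genes. For Aged+CF vs Aged, edgeR called 0 of the 107 at adjusted p and DESeq2 called 9, against 2.29% of all genes by DESeq2. An unadjusted p under 0.05 in edgeR at any fold was found for 26, against 16.3% of all genes. In the same 9 ovaries edgeR called 5 of the 109 higher and 1 lower in Aged+CF, against 0.713% and 2.16% of all genes.

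Of 21 pan-macrophage surface and phagocytosis genes, 15 rose with age and 0 fell (median log2 fold change 0.98). The count was 12 and 0 without Aged replicate 34. Fcgr2b, the inhibitory receptor for IgG, rose from 33.1 ± 3.15 CPM in Control (SD, n = 4) to 74.2 ± 23.2 CPM in Aged (SD, n = 3; edgeR adjusted p = 0.00559). Ctss, which encodes the lysosomal protease cathepsin S, rose from 63.9 ± 8.84 to 189 ± 92 CPM (adjusted p = 0.00764). Of 26 TREM2 partner, lipid-associated and foam-cell genes, 8 rose and 0 fell (median 0.55). Itgax, the gene of the integrin CD11c, rose from 5.82 ± 1.18 to 30.2 ± 21.4 CPM (adjusted p = 0.0074), and Ctsd, the lysosomal protease cathepsin D, from 590 ± 36.7 to 982 ± 160 CPM (adjusted p = 0.00967). In the fit that left out Aged replicate 34, 10 of the 26 rose and the 4 named genes were still called, by 1.89-fold for Fcgr2b, 2.18-fold for Ctss, 3.16-fold for Itgax and 1.55-fold for Ctsd.

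Of 12 osteoclast-like and giant-cell fusion genes tested, 3 rose and 0 fell (median 0.38). Dcstamp (0 to 4 counts per ovary), Ocstamp (0 to 17) and Oscar (0 to 9) of the same list were too low to be tested. Atp6v0d2, a proton pump subunit needed for osteoclast fusion, rose from 10.5 ± 1.31 to 43.2 ± 22.2 CPM (edgeR adjusted p = 0.00497), and Acp5, tartrate-resistant acid phosphatase, from 8.45 ± 1.09 to 28 ± 10.6 CPM (adjusted p = 0.00425). Both were still called without Aged replicate 34, by 2.96-fold and 2.66-fold. In that fit 4 genes of the list rose and 1 fell (median 0.14). The gene that fell was Mitf, at 0.306-fold (edgeR adjusted p = 0.00144). Of 14 genes of the CSF1 axis and myeloid transcription factors, 3 rose (median 0.44), among them Csf2rb, the shared receptor chain for GM-CSF (3.44-fold, adjusted p = 0.0176), and Spi1, the gene of PU.1 (1.77-fold, adjusted p = 0.0338). With that ovary left out, 2 rose and 0 fell, Csf2rb was 2.96-fold higher and called, and Spi1 1.42-fold higher and under the fold threshold.

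Monocyte and recruited macrophage genes divided, with 4 of 12 higher and 2 lower in Aged (median 0.75). Ccr2, the chemokine receptor of recruited monocytes, rose 1.95-fold (edgeR adjusted p = 0.0308) and S100a6 2.93-fold (adjusted p = 0.00764). Vcan, a matrix proteoglycan that granulosa cells also make, fell from 193 ± 6.8 to 59.2 ± 26.7 CPM (adjusted p = 0.0055), and Ace, an enzyme of endothelium as well, from 45.6 ± 6.79 to 28 ± 3.36 CPM (adjusted p = 0.0237). The summed level of 8 granulosa markers was 4320 to 7220 CPM in Control, 3220 to 3790 CPM in Aged and 2380 to 4140 CPM in Aged+CF, and its part in these falls was not tested. Leaving out Aged replicate 34, 1 of 13 genes tested rose and 2 fell. S100a6 (3.18-fold), Vcan (0.338-fold) and Ace (0.597-fold) were still called, and Ccr2 was not (1.73-fold, edgeR adjusted p = 0.0544).

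Tissue-resident macrophage genes had 0 of 12 higher and 1 lower (median 0.21), Igf1, a growth factor that granulosa cells of rodents also make, from 95.9 ± 7 to 56.3 ± 12.6 CPM (edgeR adjusted p = 0.00993). Without Aged replicate 34 the list had 0 of 13 higher and 3 lower (median -0.44), with Igf1 at 0.529-fold. Of 10 activation genes tested 1 rose and 1 fell (median -0.04). The gene that fell was Nos2, inducible nitric oxide synthase, from 96.6 ± 21.5 to 14.6 ± 9.16 CPM (edgeR adjusted p = 0.00864), and was at 0.209-fold of Control and called without Aged replicate 34, where 1 gene of the list rose and 2 fell. In Control Nos2 had 21.8 FPKM, against 8.13 FPKM for Csf1r and 4.32 FPKM for Adgre1. Which cells of the ovary its RNA came from was not tested.

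**Figure D5:**
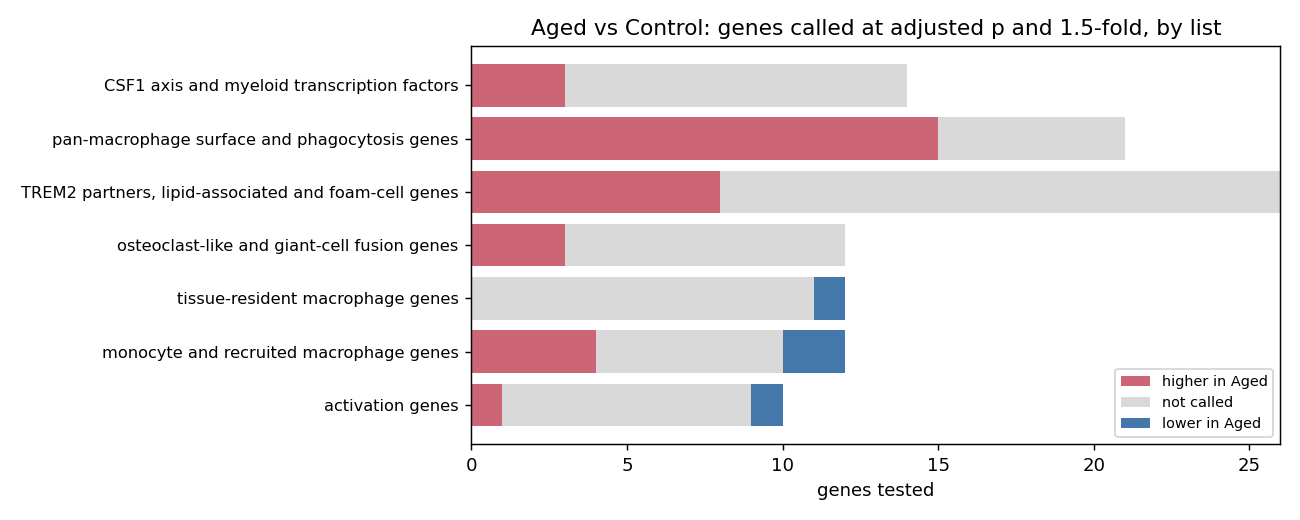
Number of genes tested in each of the 7 lists (bar length) and those called at 1.5-fold and adjusted p in Aged vs Control, higher in red and lower in blue. The pan-macrophage list has 15 of 21 genes higher in Aged, and the tissue-resident list none.

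Between Aged+CF and Aged, the genes of these lists with an unadjusted p under 0.05 and a 1.5-fold difference were 6 higher and 14 lower in Aged+CF, against 3.91% and 4.05% of all genes. In the 9 ovaries without Aged replicate 34 they were 15 higher and 10 lower, against 5.67% and 6.54%. Among the genes with the smallest p, Atp6v0d2 was 18.7 ± 3.26 CPM in Aged+CF against 43.2 ± 22.2 CPM in Aged (edgeR adjusted p = 0.161) and Acp5 was 15.9 ± 1.6 against 28 ± 10.6 CPM (adjusted p = 0.181). Fabp5, a fatty acid carrier of lipid-laden macrophages, was 48.5 ± 5.39 against 90.2 ± 31.4 CPM (edgeR adjusted p = 0.168), and Fcgr4, an activating receptor for IgG, was 6.07 ± 2.99 against 14.1 ± 3.5 CPM (adjusted p = 0.173). The log2 differences without Aged replicate 34 were -0.72 for Atp6v0d2, -0.48 for Acp5, -0.86 for Fabp5 and -1.14 for Fcgr4, none called by edgeR at adjusted p (0.0572 to 0.117).

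On the higher side, Abca1, which exports cholesterol from cells, was 510 ± 36.2 CPM in Aged+CF against 313 ± 19.1 CPM in Aged (edgeR adjusted p = 0.15), and Cx3cr1, the fractalkine receptor, 19.6 ± 4.31 against 8.24 ± 4.48 CPM (adjusted p = 0.166). Vcan (148 ± 24.7 against 59.2 ± 26.7 CPM) and Nos2 (42.7 ± 13.9 against 14.6 ± 9.16 CPM), which had fallen with age, were higher in Aged+CF (edgeR adjusted p = 0.15 and 0.192). The cells behind these differences were not tested. Hp, the gene of haptoglobin, was 3.98 ± 0.97 against 27 ± 4.5 CPM (edgeR adjusted p = 0.177), with Control at 11.4 ± 11.9 CPM. Runx1, a transcription factor also expressed outside the myeloid lineage, was 68.2 ± 12.4 against 42.1 ± 17.6 CPM (edgeR adjusted p = 0.282). Lyve1 (12.1 ± 4.37 against 20.6 ± 10.5 CPM) and Cd209f (0.554 ± 0.0336 against 1.91 ± 2.15 CPM), genes of resident macrophages, overlapped between the groups (adjusted p = 0.301 and 0.269 by edgeR). Of the genes named here for this comparison, only Abca1 was called by edgeR at adjusted p without Aged replicate 34 (log2 difference 0.65, adjusted p = 0.0475). Without that ovary the log2 differences of the others were 1.05 for Cx3cr1, 1.20 for Vcan, 1.10 for Nos2, -2.91 for Hp, 0.96 for Runx1, -0.28 for Lyve1 and -0.34 for Cd209f. In the same fit the rest of the list genes called at adjusted p were Mitf (3.13-fold), Irf5 (1.96-fold), Axl (1.6-fold) and Igf1 (1.51-fold), higher in Aged+CF, and Npc2 (0.535-fold), lower. In Aged vs Control that fit had called Mitf (0.306-fold) and Igf1 (0.529-fold) lower and Npc2 (2.27-fold) higher, and not Irf5 or Axl. In Aged+CF vs Control Mitf was at 0.96-fold, Igf1 at 0.798-fold and Npc2 at 1.21-fold, none called.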

How the data were processed

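Total RNA of 10 mouse ovaries was sequenced. The authors deposited 1 table of raw read counts and FPKM per gene. The submitters' processing notes name TopHat, Cufflinks 2.1.1 and GRCm38.p4, and the counting tool, strand setting and annotation are not given in the sources used here. In the deposited FPKM a gene's length was the same in all ovaries. Groups were taken from the titles. Of 55487 gene identifiers, 55141 were found in GENCODE M21. No pair of ovaries in a group was a duplicate (lowest chi-square per degree of freedom 17.3).

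Counts were filtered by filterByExpr, scaled by TMM and tested with the quasi-likelihood F test of edgeR 4.0 in R 4.3, with a mean per group over all 10 ovaries and Benjamini-Hochberg adjustment over 18956 genes. A DEG had a fold change of at least 1.5 and an adjusted p under 0.05 (the cutoff of the methods). The unadjusted p used in the study's results was computed beside it. FPKM served for levels between genes. The macrophage genes and all lists were chosen with earlier results of these data known. From each list, up to 2 genes that rose and 2 that fell with age, and up to 2 genes of Aged+CF vs Aged, were named by smallest p, at a mean of at least 1 CPM, and Lyz1, Csf1, Il34 and Tyrobp as partners. Ratios used counts plus 0.5. Simulated counts with 200 changed genes gave 77.5% recovered and 4 unchanged genes called in Aged vs Control, and 70.5% and 5 in Aged+CF vs Aged, of 18650 genes. Alternatives were no filter, DESeq2 size factors, only the compared groups, the replicate number as a block, DESeq2 1.42, limma 3.58 on log2(FPKM + 0.1), Csf1r as the reference of the ratios, and leaving out each ovary. The ratios and the list genes without Aged replicate 34 were added after the data were seen. Intervals are nominal 95% intervals, from a normal approximation to the log2 fold change and its SE. They are narrower than the quasi-likelihood F test implies, so an interval can exclude 0 at an unadjusted p above 0.05. An example is Trem2 in Aged+CF vs Aged, at -0.97 to -0.02 with an unadjusted edgeR p of 0.0688.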

Additional observations from a re-analysis of the deposited data

Results flagged for a closer look

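Among the 10 genes in the 4 Control ovaries, 1 had an ovary far from the others: Gpnmb was at 88.1 CPM in Control replicate 33 and at 60.8 to 62.9 CPM in the other 3, a gap of 0.923 of the range of the group. Chance sets off about 1 in 20 such groups, and 10 were examined. All Aged and Aged+CF ovaries were above 88.1 CPM for Gpnmb. Control replicate 33 also had the highest Control sum of epithelium and oviduct markers, 542 CPM against 90.3 to 175 CPM. The part of these cells in its Gpnmb level was not tested.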

How the results depend on the processing

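In Aged vs Control no gene changed direction under any of the 16 alternatives. Spp1 was a DEG in 16 of 16, Lyz2 and Gpnmb in 15, Trem2 in 12, Cd68 in 3 and Adgre1 in 2. The number of the 10 genes called was 4, and 3 to 6 when 1 ovary was left out. At unadjusted p it was 5, and 4 to 8 with 1 ovary left out (8 without Aged replicate 31). Trem2 was not called without Control replicate 32 (log2 fold change 0.97, adjusted p = 0.0548) or Control replicate 34 (1, adjusted p = 0.0511), nor by limma (0.77, adjusted p = 0.0619). Cd68 was called without Aged replicate 31 (1.10, adjusted p = 0.0406) or 33 (1.12, adjusted p = 0.0309) and by DESeq2 (0.91, adjusted p = 0.0137). Adgre1 was called without Control replicate 33 (0.60) or Aged replicate 31 (0.62). On FPKM, limma moved the median of all genes to -0.14.

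In Aged+CF vs Aged 0 genes were called at adjusted p under any of the 16 alternatives. At unadjusted p the number was 2, 1 with only the compared groups, 0 by limma, and 0 to 4 with 1 ovary left out. It was 0 without Aged replicate 34, 4 without Aged replicate 33, and 1 without Control replicate 31, 32 or 34 or Aged+CF replicate 30, 32 or 34. Values of uncalled genes that changed sign were those of Csf1r (0.10 by limma, 0.32 without Aged replicate 34, 0.13 without Aged+CF replicate 32, and -0.25 to 0.32 with 1 ovary left out), Mrc1 (0.02 by limma, 0.13 without Aged replicate 34, and -0.23 to 0.13), Cd163 (-0.27 without Aged replicate 31, -0.03 without Aged replicate 33 or Aged+CF replicate 34, -0.02 without Aged+CF replicate 30, and -0.27 to 0.50) and Spp1 (-0.10 without Aged+CF replicate 32). In Aged+CF vs Control the number called was 1, 3 by DESeq2, 4 with only the compared groups, and 1 to 4 with 1 ovary left out (4 without Aged replicate 34). At unadjusted p it was 4, and 4 to 5 with 1 ovary left out. Fcgr1 changed sign without Control replicate 33 (-0.01) or Aged+CF replicate 34 (-0.10), with a range of -0.10 to 0.23. With Csf1r as reference the log2 ratio in Aged+CF vs Control was 0.07 for Cd163 and 0.06 for Trem2, against -0.14 and -0.16 with Adgre1. The difference for Trem2 in Aged vs Control was 0.49 with Csf1r (exact permutation p = 0.0286) and 0.41 with Adgre1 (p = 0.171). Leaving Aged replicate 34 out of the ratios, an alternative chosen after the data were seen, turned the sign for Csf1r (0.05) and Spp1 (-0.19) in Aged+CF vs Aged and for Cd68 (-0.04) in Aged vs Control. The cause of these shifts was not tested.

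Of the 107 list genes, 38 were called in Aged vs Control, 45 by DESeq2 and 23 to 42 with 1 ovary left out (24 without Control replicate 32, 23 without Control replicate 34). For Aged+CF vs Aged the number was 0, 9 by DESeq2 and 0 to 6 with 1 ovary left out (2 without Aged replicate 31, 1 without Aged replicate 33, 6 without Aged replicate 34). For Aged+CF vs Control it was 0, 10 by DESeq2 and 0 to 14 with 1 ovary left out (1 without Control replicate 31, 14 without Aged replicate 34). Over all genes, 2096 were called in Aged vs Control (1081 without Control replicate 32, 1090 without Control replicate 34), 1 in Aged+CF vs Aged (434 by DESeq2, 556 without Aged replicate 34) and 34 in Aged+CF vs Control (528 by DESeq2, 487 with only the compared groups, 348 without Aged replicate 34).

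Deviations of ovaries with the same replicate number had correlations of -0.18 to 0.15, and the numbers were not used as pairs in the main fit. Few numbers are shared between groups, so this check cannot exclude that a number marks a shared condition. With the replicate block, 1 gene was called in Aged vs Control (Spp1), 0 in Aged+CF vs Control, and 2 there at unadjusted p, with 80 and 9 genes called of all. Under the block Lyz2, Gpnmb and Trem2 in Aged vs Control had log2 fold changes of 1.50, 1.96 and 0.97 (adjusted p = 0.065, 0.0668 and 0.0953), Spp1 in Aged+CF vs Control 3.56 (adjusted p = 0.0819), and Cd163 in Aged+CF vs Aged -0.05. Depth was thinnest for Lyz1, with 2 to 89 counts per ovary.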
